A study of Mus musculus with 12 samples.

Results

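The genes described here take iron into the macrophage, store it and release it, or sense how much of it there is. They were chosen by name: the rows of the gene count table whose Ensembl identifiers map to Tfrc, Steap3, Slc11a2, Slc11a1, Fth1, Ftl1, Slc40a1, Cp, Ireb2 and Aco1. All 10 were found among 48526 genes, and all 10 passed the filter on low counts (at least 10 counts in at least 3 libraries), which left 12421 genes for testing. The cells were bone marrow-derived macrophages, that is, marrow cells grown into macrophages with m-CSF at 10 ng/mL, from 3 female wild-type C57Bl/6J mice. On day 7 each mouse's cells were divided between 4 conditions that lasted 16 hr: no addition, recombinant Wnt3a at 100 ng/mL, IL-4 at 100 pg/mL, and the 2 agents together. RNA was then sequenced. The study asked whether Wnt3a, an activator of the Wnt pathway, adds to the effects of IL-4, the cytokine of alternative macrophage activation.

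The deposited columns for Wnt3a and for Wnt3a with IL-4 were not independent. In each mouse the Wnt3a column could be written as the Wnt3a+IL4 column plus a further, non-negative count for every gene, and that further count never exceeded the Wnt3a+IL4 count (0 of 48526 genes outside these bounds). Each pair of columns was therefore split into its 2 parts: the difference (what is left of the Wnt3a column once the Wnt3a+IL4 column is taken away) and the remainder (the Wnt3a+IL4 column minus the difference). Both parts come from columns labelled with Wnt3a. The labels do not say which of them, if either, is the culture that also received IL-4. The 2 parts are therefore named here as difference and remainder. Each was compared with the untreated and the IL-4 libraries of the same mice. Values are CPM, counts per gene scaled to the size of the library after TMM scaling, which makes the typical gene equal between libraries. A gene was called changed where edgeR's quasi-likelihood test over all 12421 genes gave a Benjamini-Hochberg adjusted p under 0.05. Every adjusted p below comes from that fit unless another is named.

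A macrophage takes up transferrin-bound iron through the transferrin receptor, clears it from the endosome with a ferrireductase and a divalent metal transporter, and recovers further iron from the red cells it digests. Surplus iron is held in ferritin, a shell of heavy and light chains, and leaves the cell through ferroportin, with a copper oxidase such as ceruloplasmin loading it onto transferrin. The system is set largely after transcription. When iron is scarce, the iron regulatory proteins IRP1 and IRP2 bind a stem-loop, the iron-responsive element, in the 5′ UTR of the ferritin and ferroportin mRNAs and block their translation, and bind the same kind of element in the 3′ UTR of the Tfrc mRNA and protect it from decay. Counts of mRNA see the second of these effects and not the first.

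The elements themselves are shown because this control acts on mRNA stability or on translation according to where they lie. The annotated UTRs of GENCODE M21 (build GRCm38, the same as mm10) were searched on the transcript strand for a C, 5 bases, the loop CAGTGN, and 5 bases that pair with the first 5. The 3 ferritin and ferroportin genes held 1 match each in the 5′ UTR, and Tfrc held 4 in the 3′ UTR. They are written 5′ to 3′ with the loop in capitals.
Fth1, 5′ UTR, chr19:9982732-9982760, plus strand: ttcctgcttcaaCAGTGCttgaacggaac
Ftl1, 5′ UTR, chr7:45459779-45459807, minus strand: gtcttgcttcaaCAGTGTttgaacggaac
Slc40a1, 5′ UTR, chr1:45925465-45925493, minus strand: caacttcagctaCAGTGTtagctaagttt
Tfrc, 3′ UTR, chr16:32631219-32631247, plus strand: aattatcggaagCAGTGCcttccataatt
Tfrc, 3′ UTR, chr16:32631598-32631626, plus strand: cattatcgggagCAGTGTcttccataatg
Tfrc, 3′ UTR, chr16:32631663-32631691, plus strand: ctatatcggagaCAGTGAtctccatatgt
Tfrc, 3′ UTR, chr16:32631710-32631738, plus strand: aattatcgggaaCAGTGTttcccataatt
Across 22527 coding genes, 28 (0.124%) had such a match in the 5′ UTR and 128 (0.568%) in the 3′ UTR. With at least 4 further base pairs in the lower stem, which all 7 sequences above have, the numbers were 7 genes (0.031%) and 10 genes (0.044%). In the other 6 members these letters were not found in the annotated UTRs. The search is strict and misses elements with a bulge in the upper stem, as described for the 3′ UTR of Slc11a2.

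The libraries held 13342492 to 17453377 counts each. The 3 libraries of a group came from separate mice. The macrophage markers (8 of 8) were each above 1 CPM in every group, with summed levels of 43979 to 68614 CPM, and the erythroid markers, whose cells carry much Tfrc, summed to at most 0.96 CPM with 0 of 10 reaching 1 CPM. The neutrophil markers summed to 65.0–89.0 CPM untreated, 100.9–108.8 with IL-4, 102.4–148.5 in the difference and 74.0–97.7 in the remainder; in the same order Mmp8 averaged 19.8, 32.9, 87.8 and 51.6 CPM and S100a8 9.99, 12.6, 8.79 and 7.39. Stromal markers summed to 5.82–30.7 CPM, lymphocyte markers to 2.67–3.88 and dendritic cell markers to at most 2.52. Axin2, a target of the Wnt pathway, had 0 to 1 counts in the untreated and IL-4 libraries, 1 to 5 in the difference and 9 to 13 in the remainder. Retnla, an IL-4 target, had 535 to 781 counts with IL-4 and at most 1 in any other library. Within groups, libraries also differed by transcript length: the correlation, over 12392 genes, between a gene's deviation from its group mean and its log2 transcript length ran from -0.32 in the remainder of mouse 1 and -0.25 in the untreated library of mouse 2 to 0.23 in the untreated library of mouse 3 and in the remainder of mouse 2.

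IL-4 alone changed 2 of the 10 genes (1 up, 1 down), against 3.4% of all genes tested. In the difference 4 were called against untreated (2 up, 2 down; 23.2% of all genes), and in the remainder 6 (4 up, 2 down; 25.3% of all genes). The largest changes were a 2.46-fold rise of Tfrc with IL-4 alone, a fall of Slc40a1 to between 0.25 and 0.43 of its untreated level in the parts of the Wnt3a-labelled columns, and a rise of Cp from about 3.28 to 33.8 and 45.6 CPM in those parts. The remainder differed from the difference in 2 genes, both lower (5.25% of all genes). The comparisons with untreated share the untreated libraries, so they are not independent of each other. Over the 10 genes the median log2 fold change was -0.02 with IL-4, -0.04 in the difference and 0.02 in the remainder, beside -0.0030, -0.01 and -0.02 over all genes.

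**Figure D1:**
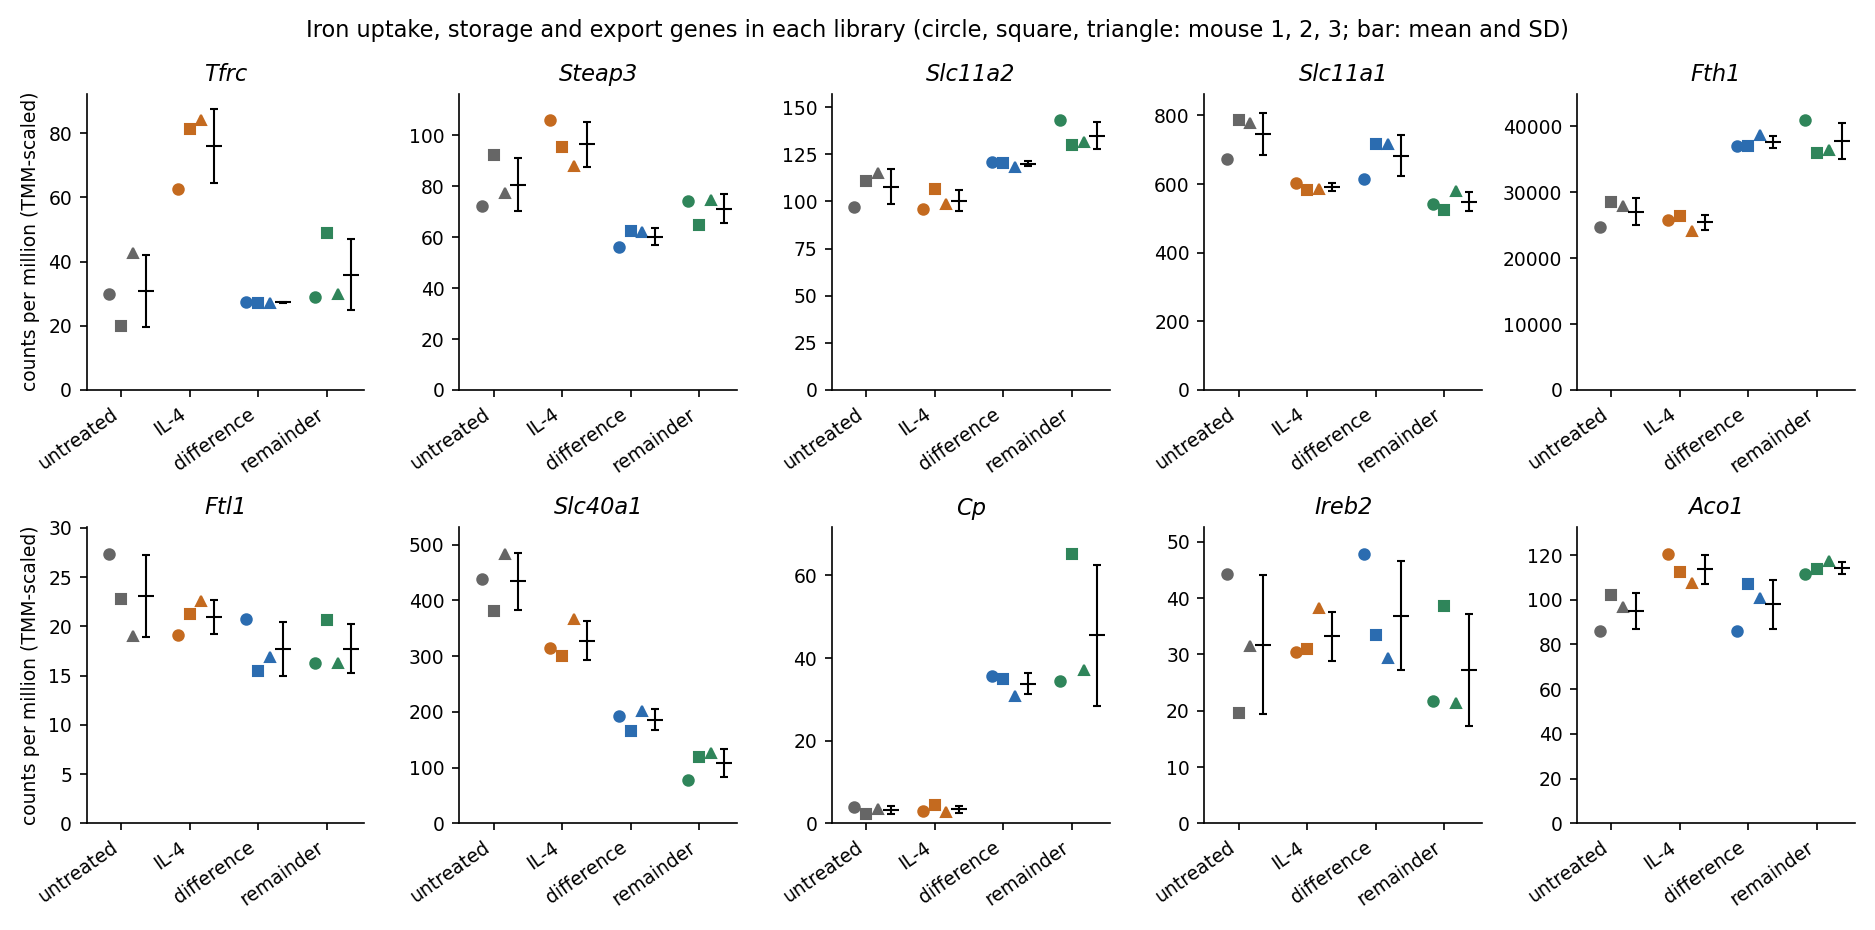
Level of each of the 10 iron genes, in TMM-scaled CPM (linear axis from 0), in the untreated, IL-4, difference and remainder libraries; circles, squares and triangles are mice 1, 2 and 3, and the bar is the mean with its SD over 3 mice. Tfrc is highest in the IL-4 libraries (62.7 to 83.9 CPM), Slc40a1 steps down from untreated (380.9 to 483.1) to the remainder (78.7 to 125.8), and Cp is low without Wnt3a (2.19 to 4.47) and above 30 in all 6 other libraries.

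Tfrc encodes the transferrin receptor, the main entry for iron (chromosome 16, 32608920 to 32632794, GRCm38). In mice 1, 2 and 3 its level was 29.9, 19.9 and 42.5 CPM untreated, and 62.7, 81.3 and 83.9 CPM with IL-4. In the difference it was 27.5, 27.2 and 27.0 CPM, and in the remainder 28.9, 48.7 and 30.0 CPM. The IL-4 libraries lay above all 9 others, and the other 3 groups overlapped or nearly touched. Against untreated, IL-4 raised Tfrc by 1.30 ± 0.23 on the log2 scale (SE, n = 3 mice, adjusted p = 0.0052), which is higher in 3 of 3 mice. In these bulk cultures more mRNA in every cell and more cells with the mRNA cannot be told apart. The order of the group means was IL-4 (76.0), remainder (35.9), untreated (30.8) and difference (27.2), and no pair among the last 3 passed the test. The 95% interval of the log2 difference from untreated ran from -0.69 to 0.33 in the difference and from -0.28 to 0.73 in the remainder. Both lay below IL-4, by 1.48 ± 0.24 (adjusted p = 0.00036) and 1.08 ± 0.23 (adjusted p = 0.0041).

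The spread of Tfrc within groups went with the transcript-length measure given above in some libraries and not in others. Untreated mouse 2 (-0.25 on that measure) lay 0.56 below its group mean on the log2 scale, and untreated mouse 3 and remainder mouse 2 (0.23 each) lay 0.53 and 0.48 above theirs. Remainder mouse 1 (-0.32) and remainder mouse 3 (0.07) had deviations of -0.27 and -0.21. The difference libraries ran from -0.19 to 0.17 on the measure, with Tfrc deviations of only -0.01 to 0.01. The part of this measure in the Tfrc values was not tested. Without mouse 3 the rise with IL-4 was 1.51 with an adjusted p of 0.052, in a fit that called 77 genes in all where 3 mice gave 422, and the remainder lay 0.87 below IL-4 (adjusted p = 0.086).

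Steap3, the ferrireductase that turns endosomal ferric iron into the ferrous form, was lower in the difference. Its level was 72.0, 92.1 and 77.4 CPM untreated and 56.3, 62.4 and 62.0 CPM in the difference, without overlap. The fall was 0.42 ± 0.10 on the log2 scale (adjusted p = 0.0090). With IL-4 Steap3 had 105.8, 95.5 and 88.1 CPM, 0.26 ± 0.10 above untreated (adjusted p = 0.23), and in the remainder 74.2, 64.6 and 74.7 CPM, between the difference and untreated. Both parts lay below IL-4, the difference by 0.68 ± 0.10 (adjusted p = 0.00022) and the remainder by 0.44 ± 0.10 (adjusted p = 0.0067). Without mouse 2 or mouse 3 the fall in the difference missed the threshold (adjusted p = 0.059 and 0.081), as did the remainder against IL-4 without mouse 3 (0.062).

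The proton-coupled metal transporters of the Slc11 family changed in opposite directions in the remainder against untreated, the only comparison in which both were called. Slc11a2 (DMT1) carries ferrous iron out of the endosome after uptake. Slc11a1 (NRAMP1), where it is functional, sits in the phagosome membrane of macrophages and draws iron and manganese away from engulfed microbes. The counts are of mRNA, and whether NRAMP1 is functional in these C57Bl/6J cells was not examined. Slc11a2 had 97.2, 110.8 and 115.3 CPM untreated, 96.0, 106.7 and 98.7 with IL-4, 120.9, 120.3 and 118.4 in the difference, and 142.9, 129.7 and 131.7 in the remainder. The remainder libraries were the 3 highest, at 0.32 ± 0.08 above untreated (adjusted p = 0.0070). The difference was 0.15 ± 0.08 above untreated (adjusted p = 0.18) and 0.25 ± 0.08 above IL-4 (adjusted p = 0.032; 0.056 with the replicate block, the fit paired by mouse). The latter call was also lost without IL-4 mouse 1 or 3 or any 1 of the difference libraries (adjusted p up to 0.11). It was lost too without all libraries of mouse 1, 2 or 3 (adjusted p = 0.088, 0.075 and 0.23). Without mouse 1 or mouse 3 the rise in the remainder was 0.21 (adjusted p = 0.087) and 0.40 (adjusted p = 0.061). An exon of Gm5475 on the other strand covers 6.33% of the exon bases of Slc11a2.

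Slc11a1 was lowest in the remainder. It had 674.5, 785.4 and 778.0 CPM untreated, 603.9, 582.2 and 585.8 with IL-4, 613.7, 716.5 and 716.5 in the difference, and 542.1, 524.2 and 579.3 in the remainder. The fall in the remainder was 0.44 ± 0.09 on the log2 scale (adjusted p = 0.0016; without mouse 3, 0.054). The falls with IL-4 (0.34 ± 0.09, adjusted p = 0.048) and from the difference to the remainder (0.31 ± 0.09, adjusted p = 0.0498) sat at the threshold. With the replicate block their adjusted p-values were 0.061 and 0.065, and single libraries decided both: the IL-4 call held only without untreated mouse 1, difference mouse 1 or remainder mouse 1 or 2 (adjusted p up to 0.13 without another library), and the call between the parts only without untreated mouse 1 or 2 or difference mouse 1 (up to 0.18). Within each library the ratio of Slc11a1 to Slc11a2 counts was 6.92 ± 0.17 untreated (SD, n = 3), 5.89 ± 0.42 with IL-4, 5.70 ± 0.54 in the difference and 4.08 ± 0.30 in the remainder. The remainder ratios (3.79 to 4.40) lay below all others.

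Ferritin heavy chain, Fth1, the chain that oxidises iron as it enters the shell, was among the most abundant mRNAs. It held 2.69%, 2.88% and 2.87% of all counts in the untreated libraries, 2.51%, 2.65% and 2.51% with IL-4, 3.71%, 3.60% and 3.75% in the difference and 3.87%, 3.56% and 3.52% in the remainder. The 6 libraries of the Wnt3a-labelled columns lay above the 6 others, with no overlap. Against untreated, Fth1 rose by 0.48 ± 0.10 on the log2 scale in the difference (adjusted p = 0.0029) and by 0.48 ± 0.10 in the remainder (adjusted p = 0.0024), about 1.4-fold in each. Against IL-4 the rises were 0.56 ± 0.10 and 0.57 ± 0.10. The remainder and the difference were 0.01 apart, with a 95% interval from -0.21 to 0.22. IL-4 alone gave -0.09 ± 0.10 (adjusted p = 0.77). Without mouse 3 the rises over untreated were 0.48 and 0.54, with adjusted p-values of 0.087 and 0.059, and those over IL-4 had 0.071 and 0.053.

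Ftl1, the light chain, which helps the iron core to form, had only 15.4 to 27.4 CPM (232 to 509 counts), and these counts are uncertain. Of all 50-base stretches of its basic coding transcripts, 86.2% also occur in other annotated genes, mainly in Ftl1-ps1, and exons of other genes cover 8.13% of its exon bases on the same strand and 26.5% on the other. How the authors' counting treated reads that fit several genes is not given in the sources used here, so this row is not read as the level of the light chain mRNA. The annotated copies held few counts too, at most 2 for Ftl1-ps1 and 37 for Ftl1-ps2. The row averaged 23.1 ± 4.2 CPM untreated (SD, n = 3), 21.0 ± 1.7 with IL-4, 17.7 ± 2.7 in the difference and 17.8 ± 2.5 in the remainder. The log2 changes in the parts, -0.39 ± 0.15 and -0.38 ± 0.15, did not pass the test (adjusted p = 0.084 in each). They passed without the untreated library of mouse 3 (-0.51 in each, adjusted p = 0.040), and the first also without difference mouse 1 (-0.53) and the second without remainder mouse 2 (-0.50). For Fth1, 3.8% of such stretches occur elsewhere, in Gm6977.

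Slc40a1 encodes ferroportin, the only known exporter of iron from the cell (chromosome 1, 45908068 to 45926523, GRCm38). It had 438.8, 380.9 and 483.1 CPM in the untreated libraries, and 315.1, 300.6 and 366.6 CPM with IL-4. In the difference it had 192.6, 165.0 and 201.5 CPM, and in the remainder 78.7, 119.8 and 125.8 CPM. The 4 groups did not overlap at any step of the order untreated, IL-4, difference, remainder. The difference was 1.22 ± 0.15 below untreated on the log2 scale (adjusted p = 4.6e-05) and the remainder 2.01 ± 0.16 below (adjusted p = 4.3e-07), that is, 2.33-fold and 4.02-fold lower, in 3 of 3 mice each. Both calls held under every alternative fit. The parts were also below IL-4, by 0.81 ± 0.15 (adjusted p = 0.0012) and 1.60 ± 0.16 (adjusted p = 4.7e-06).

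The steps next to each other in that order were smaller. IL-4 against untreated gave -0.41 ± 0.15 (95% interval -0.73 to -0.08, adjusted p = 0.20), lower in 3 of 3 mice. The call came out with 2 of the alternative fits, the one on all genes with at least 1 count (adjusted p = 0.00093) and the one on the labelled columns (adjusted p = 0.039). The remainder was 0.79 ± 0.15 below the difference (adjusted p = 0.0078). Leaving out any single library kept this call, but leaving out all libraries of 1 mouse did not always: without mouse 1 the step was -0.58 (adjusted p = 0.073), and without mouse 3 it was -0.85 (adjusted p = 0.10).

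Cp, ceruloplasmin, the copper oxidase that helps ferroportin to pass iron to transferrin, was near the floor of the data without Wnt3a. Its counts were 76, 34 and 57 in the untreated libraries and 51, 70 and 38 with IL-4. In the difference they were 623, 571 and 425, and in the remainder 554, 1061 and 565. The 6 libraries of the Wnt3a-labelled columns (30.9 to 65.2 CPM) were all above the 6 others (2.19 to 4.47 CPM). The log2 rise over untreated was 3.35 ± 0.27 in the difference (10.2-fold, adjusted p = 7.5e-07) and 3.78 ± 0.27 in the remainder (13.7-fold, adjusted p = 2.0e-07). Over IL-4 it was 3.30 ± 0.27 and 3.73 ± 0.27, and all 4 of these calls held under every alternative. IL-4 alone gave 0.05 ± 0.31, with a 95% interval from -0.62 to 0.73. The remainder of mouse 2, which had the highest length measure of its group, carried the highest Cp level. The step from difference to remainder did not pass the test (0.43 ± 0.22, 95% interval -0.05 to 0.91, adjusted p = 0.32). The fit on all genes with at least 1 count called it (adjusted p = 0.024).

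**Figure D2:**
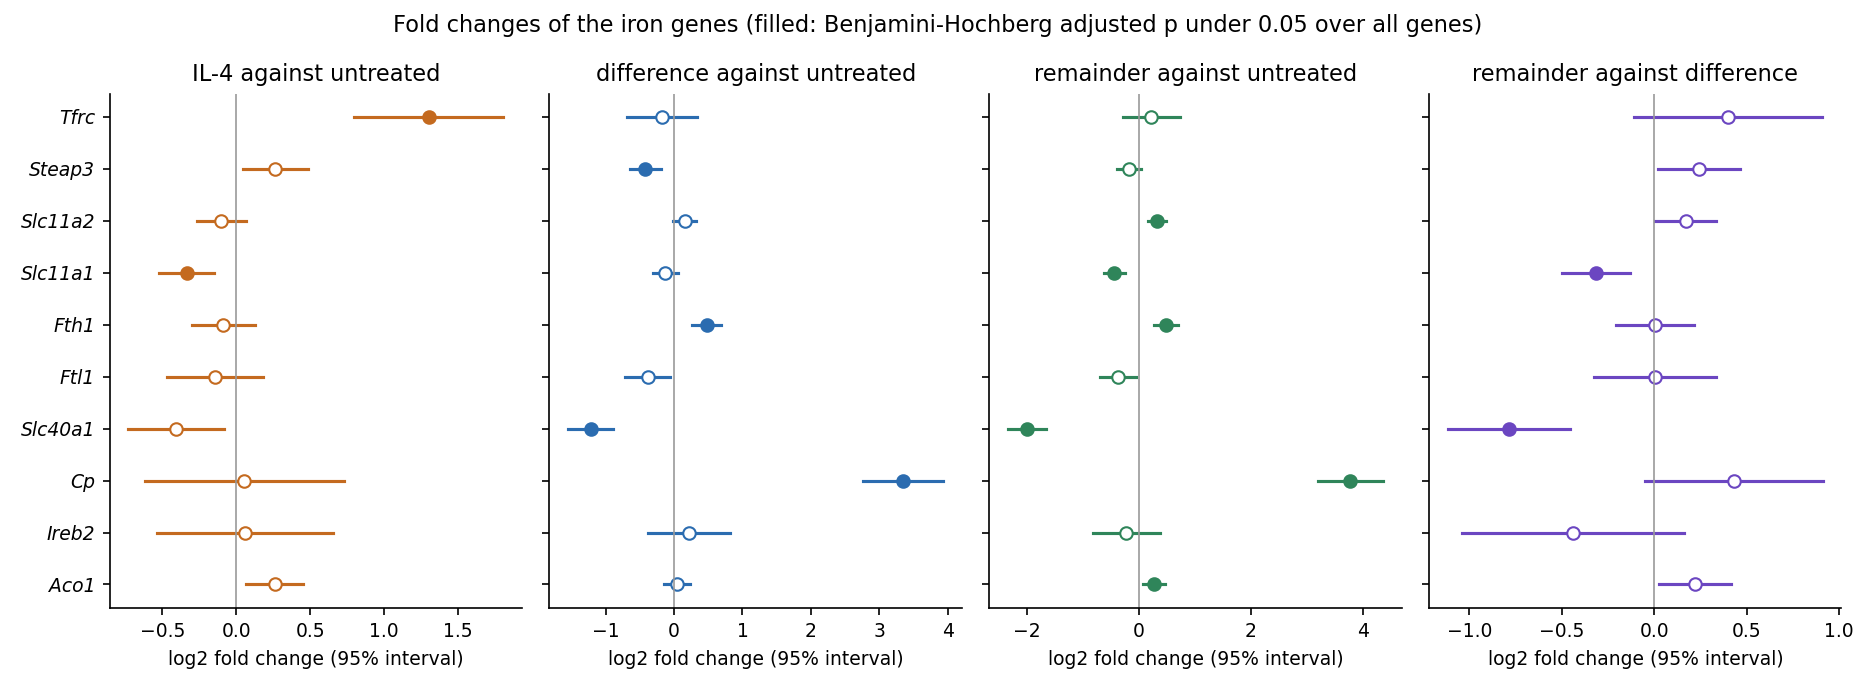
Log2 fold change with its 95% interval for each of the 10 genes in 4 comparisons (horizontal axis, a separate scale in each panel); filled points passed the test over all genes. IL-4 alone moves Tfrc (1.30) and Slc11a1 (-0.34), Cp (3.35 and 3.78) and Fth1 (0.48 in each) rise in both parts of the Wnt3a-labelled columns while Slc40a1 (-1.22 and -2.01) falls in both, and the remainder lies below the difference for Slc40a1 and Slc11a1.

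Uptake and export were also set against each other within each library, as the ratio of Slc40a1 to Tfrc counts, which needs no scaling for library size. The ratio was 14.7, 19.1 and 11.4 in the untreated libraries of mice 1, 2 and 3, with a mean of 15.0 ± 3.9 (SD, n = 3). It averaged 4.36 ± 0.66 with IL-4, 6.84 ± 0.72 in the difference and 3.12 ± 0.93 in the remainder. All 9 treated libraries (2.46 to 7.47) lay below the 3 untreated ones. The highest and lowest untreated ratios were those of mice 2 and 3, at -0.25 and 0.23 on the transcript-length measure. The part of that measure in the ratios was not tested. With IL-4 the lower ratio went with a higher Tfrc and with a lower Slc40a1 that did not pass the test (327.5 against 434.3 CPM). In the 2 parts it went with a lower Slc40a1, while Tfrc was not called against untreated. These ratios describe genes that were already tested singly and carry no test of their own.

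**Figure D3:**
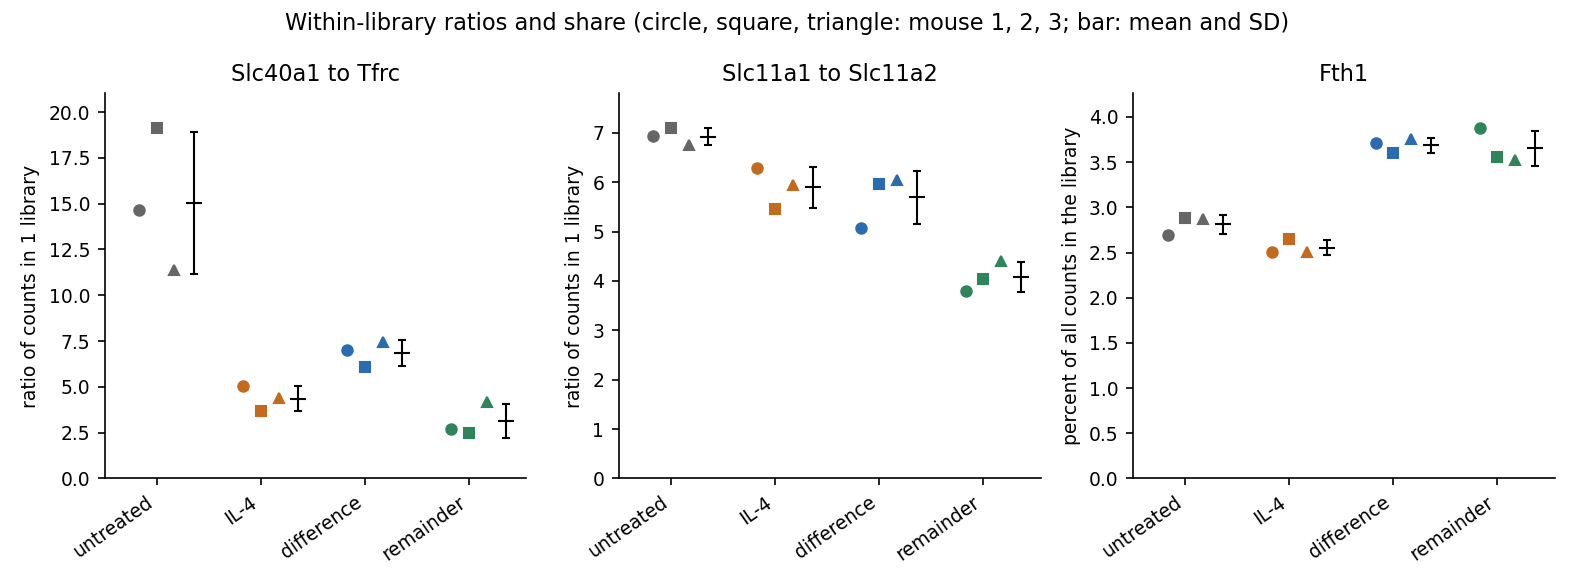
Ratio of Slc40a1 to Tfrc counts, ratio of Slc11a1 to Slc11a2 counts, and Fth1 as a percent of all counts, in each library (linear axes from 0; circles, squares and triangles are mice 1, 2 and 3; the bar is the mean and SD over 3 mice). The untreated libraries have the highest Slc40a1 to Tfrc ratios (11.4 to 19.1), the remainder has the lowest Slc11a1 to Slc11a2 ratios (3.79 to 4.40), and Fth1 takes 3.52% to 3.87% of counts in the difference and remainder against 2.51% to 2.88% elsewhere.

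Of the sensors, Aco1 was called in the remainder against untreated and Ireb2 in no comparison. Ireb2 encodes IRP2, which is degraded when iron is plentiful, and Aco1 encodes IRP1, which switches between an aconitase and an RNA-binding form. Ireb2 had 44.2, 19.6 and 31.4 CPM untreated, 30.5, 30.9 and 38.2 with IL-4, 47.8, 33.5 and 29.4 in the difference and 21.7, 38.7 and 21.4 in the remainder. All 4 groups overlapped and no comparison passed the test. Its intervals were wide, for example -0.83 to 0.38 for the remainder against untreated, and the libraries that deviated most were untreated mouse 2 (-0.61 from its group mean) and remainder mouse 2 (0.56). Without mouse 2, Ireb2 was lower in the remainder than in untreated cells by 0.81 (adjusted p = 0.014) and than in the difference by 0.84 (adjusted p = 0.030).

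Aco1 had 86.0, 102.1 and 96.7 CPM untreated, 120.5, 112.6 and 107.7 with IL-4, 86.0, 107.2 and 100.7 in the difference and 111.7, 113.7 and 117.1 in the remainder. The IL-4 and the remainder libraries lay above the untreated ones without overlap. The rise was 0.27 ± 0.09 in the remainder (adjusted p = 0.044; 0.051 with the replicate block) and 0.26 ± 0.09 with IL-4 (adjusted p = 0.17). The call in the remainder was lost in 12 of 23 alternative fits, with adjusted p-values up to 0.27. It was lost without untreated mouse 1 or 3 (adjusted p = 0.16 and 0.069) and without remainder mouse 1 or 3 (0.058 and 0.13), IL-4 mouse 2 (0.052) or difference mouse 3 (0.058), and total-count scaling gave 0.16 (adjusted p = 0.11).

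Per length of transcript, Fth1, Slc11a1, Slc40a1 and Aco1 were the highest members, in that order, in all 4 groups. Fth1 stood far above the rest, with 17342 CPM per kilobase untreated and 24116 in the difference. Slc11a1 (321 and 294) and Slc40a1 (129 and 55.3) followed, then Aco1 (24.8 and 25.6). The lowest level was that of Cp in the untreated (0.57) and IL-4 (0.59) libraries. In the difference Cp (5.83), Ireb2 (6.39) and Tfrc (5.24 CPM per kilobase) lay within 1 SD of Ireb2 from each other.

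Each part was compared with IL-4 as well, since IL-4 is the reference for any addition by Wnt3a. The difference differed from IL-4 in 6 of the 10 genes (20.3% of all genes called) and the remainder in 6 (20.3%). In both, Slc11a2, Fth1 and Cp were higher and Tfrc, Steap3 and Slc40a1 lower. Neither part showed the high Tfrc level of the IL-4 libraries.

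Whether IL-4 acted differently with Wnt3a depends on which part is which culture. The IL-4 target Retnla had at most 1 count in every library of both parts, so it did not tell them apart. Both readings below take it that 1 part received IL-4. If the remainder is the culture with both agents, the step from difference to remainder is the effect of IL-4 beside Wnt3a, and 0 of the 10 genes differed in it from the effect of IL-4 alone (0.105% of all genes called; 2 of the 10, Tfrc and Slc11a2, had an unadjusted p under 0.05, and DESeq2 also called 0). The Tfrc interaction was then -0.90 ± 0.33 (adjusted p = 0.28). If the difference is that culture, 4 of the 10 genes differed (7.33% of all genes): Tfrc by -1.70 ± 0.33 (adjusted p = 0.0053), Slc40a1 by 1.19 ± 0.21 (adjusted p = 0.0028), Slc11a1 by 0.65 ± 0.12 (adjusted p = 0.0037) and Aco1 by -0.48 ± 0.13 (adjusted p = 0.034). Under either reading the Tfrc term was negative, so that the log2 step between the parts was lower than the 1.30 given by IL-4 alone, with a test passed under the second reading only. With the labelled columns in place of the parts, 1 of the 4, Tfrc, was called under the second reading, and the Aco1 call was lost in 10 of 22 alternative fits. The Slc11a1 call of the second reading was also lost without mouse 2 (adjusted p = 0.055) and without mouse 3 (adjusted p = 0.16). Steap3 lay at the threshold under that reading (-0.50 ± 0.15, adjusted p = 0.051) and was called in 8 of the 22. The difference between the readings was not tested.

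A wider list of 57 other genes of iron and heme handling was examined in the same way, and 43 were tested. IL-4 alone changed 2 of them (1 up, 1 down; 4.7% against 3.4% of all genes), the difference 14 (7 up, 7 down; 32.6% against 23.2%), and the remainder 18 (10 up, 8 down; 41.9% against 25.3%). Between the parts, 8 changed (2 up, 6 down; 18.6% against 5.25%). The median log2 fold changes of the list were 0.01, 0.03, -0.01 and -0.06 in these comparisons, beside -0.0030, -0.01, -0.02 and 0.01 over all genes. None of the 6 genes listed for export and the hepcidin axis passed the filter on counts. The hepcidin axis is the hormone system that degrades ferroportin, and Heph was the export gene among them.

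Among the uptake genes, Hfe, the partner of the transferrin receptor that is mutated in hereditary iron overload, rose with IL-4. It averaged 98.8 ± 6.7 CPM untreated (SD, n = 3), 157.2 ± 5.1 with IL-4, 98.6 ± 13.2 in the difference and 180.3 ± 8.6 in the remainder. The log2 rise was 0.67 ± 0.09 with IL-4 (adjusted p = 0.00070), and the remainder was 0.87 ± 0.09 above the difference (adjusted p = 7.3e-05). Cd163, the scavenger receptor for haemoglobin bound to haptoglobin, fell from 9.87 ± 2.39 CPM to 2.14 ± 0.56 in the difference and 1.09 ± 0.08 in the remainder (log2 -2.21 ± 0.22 and -3.17 ± 0.24). Lrp1, an endocytic receptor that takes up heme bound to hemopexin, fell by 1.17 ± 0.14 and 1.04 ± 0.14. Lcn2, lipocalin 2, which captures bacterial siderophores, rose from 5.29 ± 0.38 CPM to 48.3 ± 10.4 in the difference. In the remainder it rose less, to 16.3 ± 4.0 CPM, which was 1.57 ± 0.19 below the difference (adjusted p = 0.00021).

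The heme genes held the largest rise of the list. Hp, haptoglobin, which binds free haemoglobin, went from 3.03 ± 0.61 CPM untreated to 116.8 ± 26.0 in the difference (38.4-fold, adjusted p = 3.4e-09) and 48.6 ± 11.7 in the remainder (16.0-fold, adjusted p = 1.9e-08). The remainder was 1.27 ± 0.17 below the difference. Hp and Lcn2 are also genes of neutrophil granules. Among the neutrophil markers Mmp8 rose with them, S100a8, S100a9, Ngp and Ltf averaged less in both parts than in the untreated libraries, and the part of neutrophils in these 2 values was not tested. Alas1, the first enzyme of heme synthesis, rose from 101.4 ± 12.9 CPM to 195.5 ± 15.4 and 294.7 ± 14.1, and was 0.59 ± 0.10 higher in the remainder than in the difference (adjusted p = 0.0026). Hmox1, heme oxygenase 1, which frees iron from heme, had 679 ± 73 CPM untreated and 663 ± 50, 761 ± 59 and 723 ± 101 in the other groups, and passed no test against untreated.

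Among the sensing genes, Hif1a, a hypoxia-inducible factor whose breakdown needs iron, rose by 2.11 ± 0.25 in the difference and was 0.90 ± 0.24 lower in the remainder than in the difference (adjusted p = 0.044). Epas1, which encodes the related factor HIF-2α, fell by 1.32 ± 0.19 and 1.36 ± 0.19 in the parts (adjusted p = 0.00014 and 9.0e-05). In the mitochondrion, Slc25a37, mitoferrin 1, which brings iron into the matrix, fell with IL-4 by 0.94 ± 0.16 (124.9 ± 17.7 to 65.0 ± 14.6 CPM, adjusted p = 0.0031) and averaged 168.2 ± 26.6 and 129.7 ± 10.7 CPM in the parts. Of the storage genes, Ncoa4, the receptor that takes ferritin to the lysosome, gave 0.07 ± 0.13 with IL-4, 0.06 ± 0.13 in the difference and -0.21 ± 0.13 in the remainder (adjusted p = 0.87, 0.77 and 0.27).

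**Figure D4:**
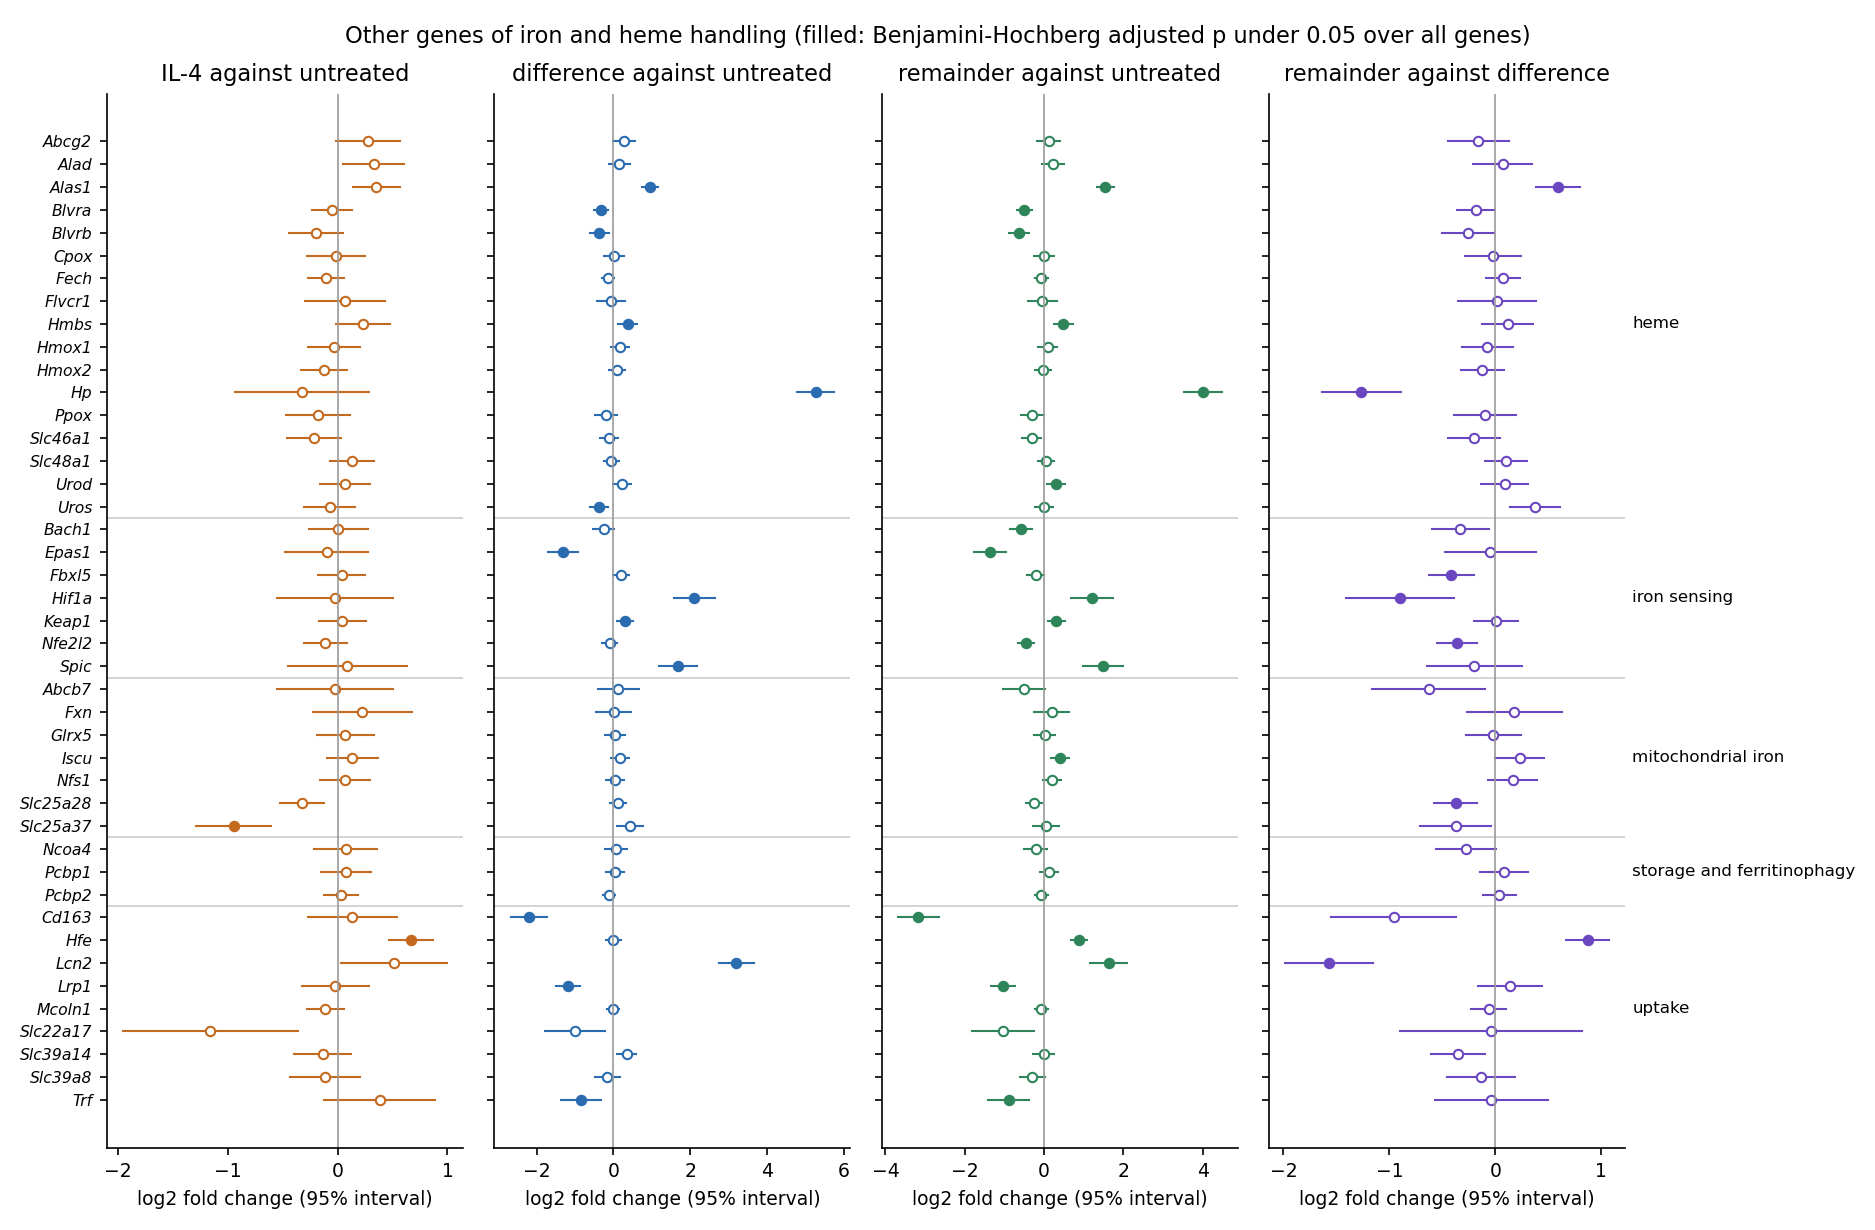
Log2 fold change with its 95% interval for the 43 tested genes of the wider iron and heme list, grouped by role, in the same 4 comparisons (horizontal axis, a separate scale in each panel; filled points passed the test over all genes). With IL-4 alone only Hfe (0.67) and Slc25a37 (-0.94) are filled; in the parts of the Wnt3a-labelled columns Hp (5.26 in the difference) and Lcn2 (3.19) lie farthest to the right and Cd163 (-2.21 and -3.17) farthest to the left.

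Across the 12 libraries, the genes whose log2 level was most like that of Tfrc, among 8492 genes that averaged 8 CPM or more, were Prkx, Cd36 and Tanc2 (Pearson r = 0.92, 0.91 and 0.91). Cd36, a scavenger receptor for oxidised lipoproteins, averaged 327.9 CPM with IL-4, against 135.4 untreated, 76.2 in the difference and 123.6 in the remainder. The genes most like Slc40a1 were Tpd52, Spryd7 and Fcrl1 (r = 0.98 in each). Fcrl1 averaged 24.6, 14.8, 6.38 and 3.30 CPM over untreated, IL-4, difference and remainder. Among the members themselves the highest correlation was that of Fth1 with Cp (r = 0.92) and the most negative that of Slc40a1 with Cp (r = -0.89). The 12 libraries come from 4 groups of 3 mice, so these values mostly repeat the order of the group means.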

How the data were processed

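Gene expression was measured by RNA sequencing of bulk bone marrow-derived macrophages. Per the labels and the methods, the authors checked reads with FastQC 0.11.7, trimmed with Trimmomatic 0.36, mapped to the mm10 genome using STAR 2.6.0 and SAMtools 1.9, and counted them per gene with HTSeq 0.11.1; DESeq2 1.24.0 is named in the submitters' processing notes. The deposited values are raw counts of reads per gene in 12 columns, keyed by Ensembl identifier, of which 99.0% were paired with a symbol. The strand setting of the counting is not given in the sources used here.

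The Wnt3a and Wnt3a+IL4 columns, which share reads, were split per mouse into difference and remainder, giving 12 libraries. Counts were tested with edgeR 4.0.16 (R 4.3.3): TMM scaling, a filter of at least 10 counts in at least 3 libraries, a quasi-likelihood fit over all 4 groups, 6 pairwise comparisons and 2 interaction terms, Benjamini-Hochberg adjustment over all tested genes. SEs were derived from the log2 fold change and its F statistic. The code was tested on simulated data. The members and the gene lists were chosen with earlier results of these data known. All members were named; from the wider list, the 3 highest and 3 lowest called genes with at least 8 CPM in the higher group per comparison, and by likeness to Tfrc and Slc40a1 the 3 nearest genes. Genes named beyond that rule (Hmox1, Ncoa4 and the marker genes) were chosen after their values were seen.

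Labels number the mice, and same-numbered libraries come from the same animal. Over the 18 same-mouse pairs of libraries, the correlation of deviations from the group means ran from -0.42 to 0.45, with 6 pairs over 0.1. A fit with the mouse as replicate block was an alternative, beside DESeq2 (1.42.0) and its size factors, total-count scaling, other filters on low counts, fits of only the groups compared, the labelled columns, and fits without each mouse or library. Transcript lengths, overlaps and iron-responsive elements came from GENCODE M21 (GRCm38); copies outside the annotation were not examined.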

Additional observations from a re-analysis of the deposited data

Results flagged for a closer look

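Each result in this part is a gene for which the step between the 2 parts of the Wnt3a-labelled columns differed from the step that IL-4 made without Wnt3a, by the interaction term of the edgeR fit over all genes. All values are differences of log2 fold changes, with 3 mice in each group.

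With the remainder taken as the culture given both agents, Lcn2 differed by -2.08 ± 0.29 (adjusted p = 0.017): it was 1.57 lower in the remainder than in the difference, while IL-4 alone gave a mean of 7.58 CPM against 5.29 untreated. Lcn2 was the 1 gene called among the 43 tested of the wider list (2.3%, against 0.105% of all genes). The call did not hold without mouse 3, untreated mouse 3, IL-4 mouse 2 or remainder mouse 3, where this term called 0 genes in all.

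With the difference taken as that culture, 4 of the 10 members differed (7.33% of all genes called). Tfrc differed by -1.70, Slc40a1 by 1.19, Slc11a1 by 0.65 and Aco1 by -0.48. From the wider iron and heme list, 7 of the 43 tested genes were called (16.3%, 5 higher and 2 lower). Of those named above, Hfe differed by -1.54 (adjusted p = 3.7e-06), Alas1 by -0.95, Slc25a37 by 1.32, Hp by 1.59 and Lcn2 by 1.06 (adjusted p = 0.043). Both readings are built on the same 12 libraries, and the labels do not say which one is right. With 3 libraries in a group no single library was tested for standing apart from its group.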

How the results depend on the processing

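Of 80 results (10 members in 8 comparisons), 48 stayed on the same side of the threshold under every alternative run. Of 1820 values under alternatives, 1712 stayed on the same side, 76 were no longer called, 32 were newly called and 0 changed sign while called. Slc40a1 and Cp against untreated and against IL-4 kept their calls throughout. Causes were not tested.

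The number of members called moved as follows. IL-4 against untreated went from 2 to 1 with the replicate block and to 1 with only the groups compared. Remainder against difference went from 2 to 1 in those fits, to 5 with all genes of at least 1 count and to 0 with the labelled columns, which share reads. Difference against untreated went from 4 to 7 with the labelled columns, where the calls over all genes went from 2884 of 12421 to 4063 of 13368. The interaction with the remainder as the culture with both agents went from 0 to 1 (Tfrc) with all genes of at least 1 count, and the other interaction from 4 to 1 with the labelled columns and to 5, by the addition of Steap3, with total-count scaling, both other filters on low counts and DESeq2. The replicate block ended 4 calls, all given beside their results, and no other.

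With mice or libraries left out, the members called ranged over 0 to 2 (IL-4 against untreated), 2 to 5 (difference against untreated), 2 to 7 (remainder against untreated), 0 to 2 (remainder against difference), 4 to 6 (difference against IL-4), 3 to 6 (remainder against IL-4), 0 to 0 and 2 to 5 (the interactions, in the order above). The lowest counts came without mouse 3, a fit that called fewer genes overall: 77 of 12233 genes in place of 422 for IL-4 against untreated, 1220 in place of 2884, 1375 in place of 3137 and 97 in place of 652 in the next 3.

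Over all genes, IL-4 against untreated gave 812 calls with all genes of at least 1 count and 708 with the labelled columns (main 422). Remainder against difference gave 1454, 0 and, with only the groups compared, 422 (main 652). The first interaction gave 575, 142 and, by DESeq2, 165 (main 13), and the second 1505 and 311 (main 910). With mice or libraries left out, the first ranged from 0 to 43 calls and the second from 265 to 1459. Total-count scaling moved the median log2 fold change of all genes to -0.10 in the difference and -0.13 in the remainder; the calls were then 1131 up and 2238 down (main 1462 and 1422) and 1293 up and 2342 down (main 1687 and 1450), and for IL-4 247 up and 212 down (main 287 and 135). Cp has 34 to 76 counts per library without Wnt3a.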
